A study of Canis lupus familiaris with 10 samples.

Results

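The class I chains of the dog were followed in cultured hemangiosarcoma cells through every probe set that the array annotation gives to DLA88, DLA-64, DLA-79 or B2M, alone or shared among them. This rule found 10 probe sets of 4 genes, among 42924 probe sets besides controls and 15115 genes that have a probe set of their own. Of these, 2 were annotated to DLA88 alone, 2 to DLA88 and DLA-64 together, 1 to DLA-64 alone, 3 to DLA-79 and 2 to B2M. The genes were chosen because of the values of DLA88 and DLA-64 in the breed comparison, so breed differences of all members are given below as a description, with no test.

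RNA came from early-passage, cryopreserved cells of splenic hemangiosarcoma, a malignant tumor of vessel-forming cells, and each dog gave 1 culture and 1 Affymetrix Canine_2 array. The single Golden Mix dog was DD1, described by the study as a first-generation cross of a Golden Retriever and a Great Pyrenees. The Golden Retriever group held 6 dogs (ChadG4, ChadG6, ChadG8, Frog, Journey and Tucker), and the non-Golden Retriever group held 3 dogs, namely ChadP9 (labelled Portugese Water Dog), Dal4 (labelled Dalmation) and Joey (a Rottweiler by title). Each non-Golden breed is therefore 1 dog, Frog and Journey were distant relatives, and the labels used for grouping give neither age nor sex. The study lists all 3 non-Golden Retrievers and DD1 as male, and 3 of the 6 Golden Retrievers (ChadG6, Frog and Journey) as female. Sex was not part of any fit.

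MHC class I molecules display peptides from inside the cell to cytotoxic T cells. A polymorphic heavy chain folds in the endoplasmic reticulum with the invariant light chain beta-2 microglobulin, encoded by B2M, and with a peptide that the TAP transporter has brought in. In the dog, DLA88 is the classical heavy chain and is highly variable between animals, whereas DLA-64 and DLA-79 are nonclassical heavy chain genes with limited variation. In the gene table of the assembly UU_Cfam_GSD_1.0, DLA88 and DLA-64 lie on chromosome 12 and DLA-79 on chromosome 18.

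Signals are log2 values of the robust multiarray average (RMA), on which 1 unit is a doubling, and reached 14.77 at the highest probe set. The 40th percentile of an array lay between 5.02 and 5.16, and a signal below it is called low here. The array medians differed little, from 5.77 to 5.83. Endothelial defining markers were partly missing from these cells, since PECAM1, TEK, EMCN and ESAM were low on all 10 arrays and only 3 of 9 endothelial markers (CDH5, KDR and TIE1) were above the 40th percentile on all of them. PTPRC, the marker of all leukocytes, was also low on all 10 arrays, at 4.60 to 4.96, and the 3 B cell markers on the array were low in every dog. Other leukocyte-related markers were above the 40th percentile on all 10 arrays. Among 7 T and NK cell markers these were CD3E (6.19 to 6.61), CD2 and CD4. Among 6 of monocytes and macrophages they were CD14 (5.98 to 7.98), CD68 and CSF1R. Of 6 fibroblast markers, 5 were above the 40th percentile on all 10 arrays. COL1A1 (12.84 to 13.63), COL1A2 (14.00 to 14.32), COL3A1 (13.92 to 14.33) and DCN (12.55 to 14.21) were high in every dog. PDGFRB had 6.04 to 7.17. LUM was low in Dal4 (4.40) and had 12.47 to 14.08 in the other dogs. Which cells gave these signals was not tested.

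The first DLA88 probe set was low in the Golden Mix dog and in all Golden Retrievers, and very high in all non-Golden Retrievers. Its signal was 2.57 in DD1. Among Golden Retrievers it was 2.48 at the lowest (ChadG4), 3.05 at the median and 3.45 at the highest (Tucker), against 12.26 in ChadP9, 11.57 in Dal4 and 12.76 in Joey. The groups were separated by a gap of 8.12 log2 units between Tucker and Dal4, and no dog lay in between. On its own array the signal stood at the 97.4th to 99.2nd percentile in non-Golden Retrievers, and at or below the 12.7th percentile in every other dog.

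The mean of this probe set was 2.98 ± 0.362 in Golden Retrievers (SD, n = 6) and 12.20 ± 0.598 in non-Golden Retrievers (SD, n = 3), a log2 difference of -9.22 (SE 0.288), Golden Retriever minus non-Golden Retriever as in all breed differences below. Because the Golden Retriever signal was low, the size of the difference is a bound, and the signal was at least 137-fold lower in Golden Retrievers when the 40th percentile of each array stands in for their signal. By the same bound it was at least 137-fold lower in the Golden Mix dog. Quantitative PCR in the study, a different assay, instead put DLA88 of the Golden Mix dog near the non-Golden Retrievers. The probe set entered the test only through the 3 non-Golden Retriever arrays. It was the 1 probe set that limma called at an adjusted p under 0.05 among 26787 tested, a background of 0.00373%. By the test that the methods name, 2 were called (0.00747%), this one and a probe set of ZNF169. Nothing is read from these calls for DLA88 because the gene was chosen from this contrast. In cultured cells measured in bulk, fewer cells of a type and less RNA per cell cannot be told apart. Which class I transcripts this probe set binds in each dog was not tested either. A low signal here is therefore not read as a low amount of DLA88 RNA.

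**Figure D1:**
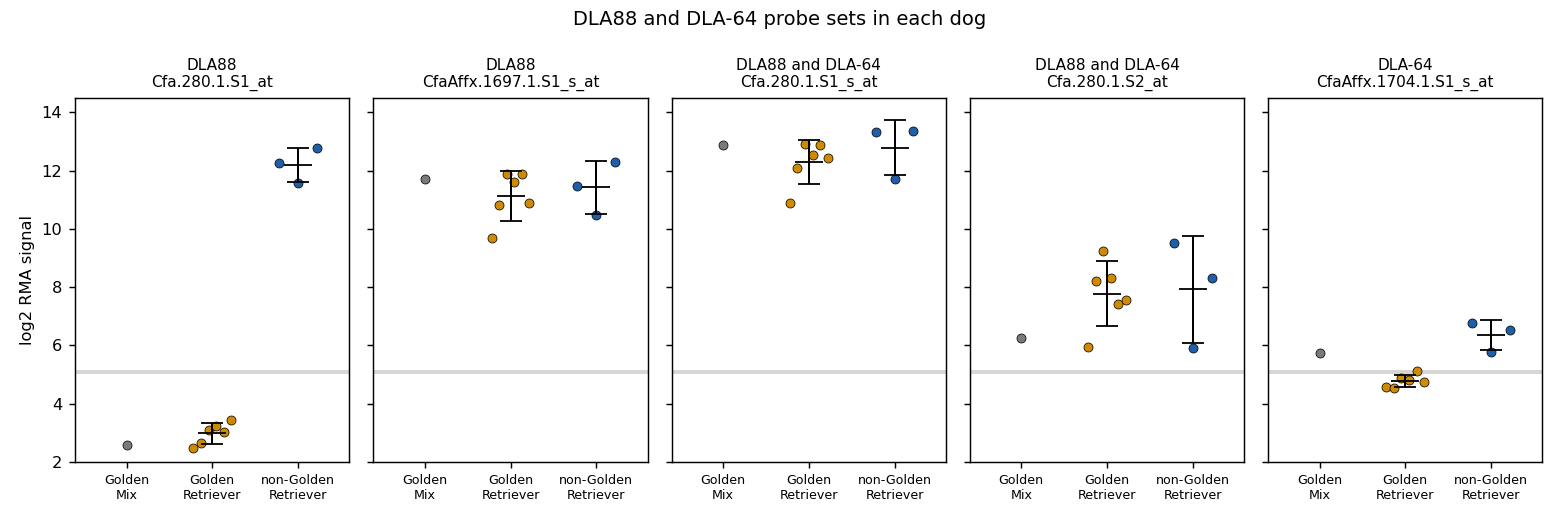
Log2 RMA signal of the 5 probe sets of DLA88 and DLA-64, named by their array identifiers above each panel, with 1 point per dog, the horizontal bar and whiskers for mean and SD, and the grey band for the range of the 40th percentile over arrays. The first probe set is at 3.45 or below in the Golden Mix and Golden Retriever dogs and at 11.57 or above in non-Golden Retrievers, whereas the next 3 panels overlap between groups.

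No dog lacked signal at the second DLA88 probe set. DD1 had 11.73. Golden Retrievers had 9.70 at the lowest (ChadG4), 11.25 at the median and 11.90 at the highest (ChadG8, with Journey equal after rounding), against 11.49 in ChadP9, 10.49 in Dal4 and 12.31 in Joey. The groups overlapped over most of their range, and the log2 difference of the means was -0.29 (SE 0.541), which was 0.15 without Joey and -0.76 without Dal4. The 2 probe sets of this gene therefore disagreed in the same 7 dogs, the Golden Mix and Golden Retriever dogs, with 1 low and 1 high. The annotation marks the second by the suffix "_s_at", used for a probe set whose probes can match several related transcripts, and which class I transcripts it binds in these dogs was not tested.

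The shared probe sets of DLA88 and DLA-64 also overlapped between groups. At the first shared probe set, DD1 had 12.89, Golden Retrievers had 10.88 at the lowest (ChadG4), 12.50 at the median and 12.93 at the highest (ChadG8), and ChadP9, Dal4 and Joey had 13.33, 11.70 and 13.35. The log2 difference of the group means was -0.50 (SE 0.507), and it stayed negative with each dog left out in turn, at -1.04 without Dal4 and -0.22 without ChadG4. Every dog thus had a strong signal at this probe set, and Dal4 lay below 5 of the 6 Golden Retrievers.

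The second shared probe set varied most among the members with a signal above the 40th percentile in all dogs. DD1 had 6.27, and Golden Retrievers had 5.93 at the lowest (ChadG4), 7.89 at the median and 9.23 at the highest (ChadG8), against 9.53 in ChadP9, 5.92 in Dal4 and 8.32 in Joey. The Golden Retrievers alone spanned 9.84-fold. The log2 difference of the means was -0.14 (SE 0.834), and it was positive without ChadG4, without ChadP9 (0.66) or without Joey.

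The spread within the Golden Retriever group was large for this array at 3 of the 5 tested heavy chain probe sets. The SD among Golden Retrievers was 0.854 for the second DLA88 probe set, 0.757 for the first shared probe set and 1.11 for the second, where the median SD over the tested probe sets was 0.302. These SDs stood at the 93.5th, 91.4th and 96.5th percentile of all tested probe sets. The first DLA88 probe set and DLA-64, both low in this group, had SDs of 0.362 and 0.218, at the 60.4th and 31.3rd percentile. The range of the second DLA88 probe set within the group was 4.61-fold. ChadG4 and Dal4 were the lowest dogs at all 3 probe sets, 1 dog from each group.

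Of the 4 smooth muscle markers fixed as a list, ACTA2, the smooth muscle actin, was also lowest in these dogs, with 6.39 in ChadG4 and 9.73 in Dal4, against 12.69 to 14.13 in the others. The other markers did not follow for Dal4. TAGLN was lowest in ChadG4 (12.97) but had 13.99 in Dal4, above Tucker (13.55) and Joey (13.82), and CNN1 was lowest in Joey (5.11), with 5.86 in ChadG4 and 9.13 in Dal4. Together with MYH11 these markers summed to 41.94 in DD1, to 29.76 to 45.38 in Golden Retrievers and to 36.33 to 44.18 in non-Golden Retrievers on the log2 scale. MYH11 was the 1 marker of the 4 not above the 40th percentile on all 10 arrays. The part of these cells in the class I signals was not tested.

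DLA-64, the nonclassical gene beside DLA88, had weak signals that ordered the groups. At its 1 probe set, DD1 had 5.74, Golden Retrievers had 4.54 at the lowest (ChadG6), 4.78 at the median and 5.13 at the highest (Journey), and ChadP9, Dal4 and Joey had 6.78, 5.77 and 6.52. None of the 6 Golden Retrievers passed the 40th percentile of its array, whereas the Golden Mix dog and the 3 non-Golden Retrievers did. The gap between the highest Golden Retriever and the lowest non-Golden Retriever was 0.64 log2 units. This probe set also carries the suffix "_s_at", and which class I transcripts it binds in these dogs was not tested.

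The DLA-64 mean was 4.77 ± 0.218 in Golden Retrievers (SD, n = 6) and 6.36 ± 0.520 in non-Golden Retrievers (SD, n = 3), with a log2 difference of -1.58 (SE 0.228). It ran from -1.87 without Dal4 to -1.37 without ChadP9. Against the 40th percentile of the arrays, the signal was at least 2.40-fold lower in Golden Retrievers. Among 26787 tested probe sets, the Golden Retrievers were all below the 3 non-Golden Retrievers at 446 probe sets (1.66%), and all above them at 213 (0.795%). Of the 7 members that passed the filter, this held for the first DLA88 probe set and for DLA-64, both of which were used to choose the genes.

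DLA-79, the nonclassical gene on chromosome 18, was low in most dogs. At the first of its probe sets, DD1 had 6.31, Golden Retrievers had 4.41 at the lowest, 4.58 at the median and 4.71 at the highest, and ChadP9, Dal4 and Joey had 7.60, 4.54 and 4.88. Only ChadP9 and DD1 were above the 40th percentile of their arrays. The other 8 dogs, all Golden Retrievers among them, were low, so no difference of group means is given.

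The other 2 DLA-79 probe sets were low on all 10 arrays and no fold is given for them. At the second, DD1 had 3.72, Golden Retrievers had 3.06 to 3.44, and ChadP9, Dal4 and Joey had 4.80, 3.22 and 3.94. At the remaining one, DD1 had 4.36, Golden Retrievers had 3.87 to 4.10, and ChadP9, Dal4 and Joey had 4.54, 3.94 and 4.06. No order between dogs is read from signals this low, although ChadP9 had rank 1 and DD1 rank 2 or 3 at all 3 DLA-79 probe sets. None of the 3 passed the filter on low signals.

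**Figure D2:**
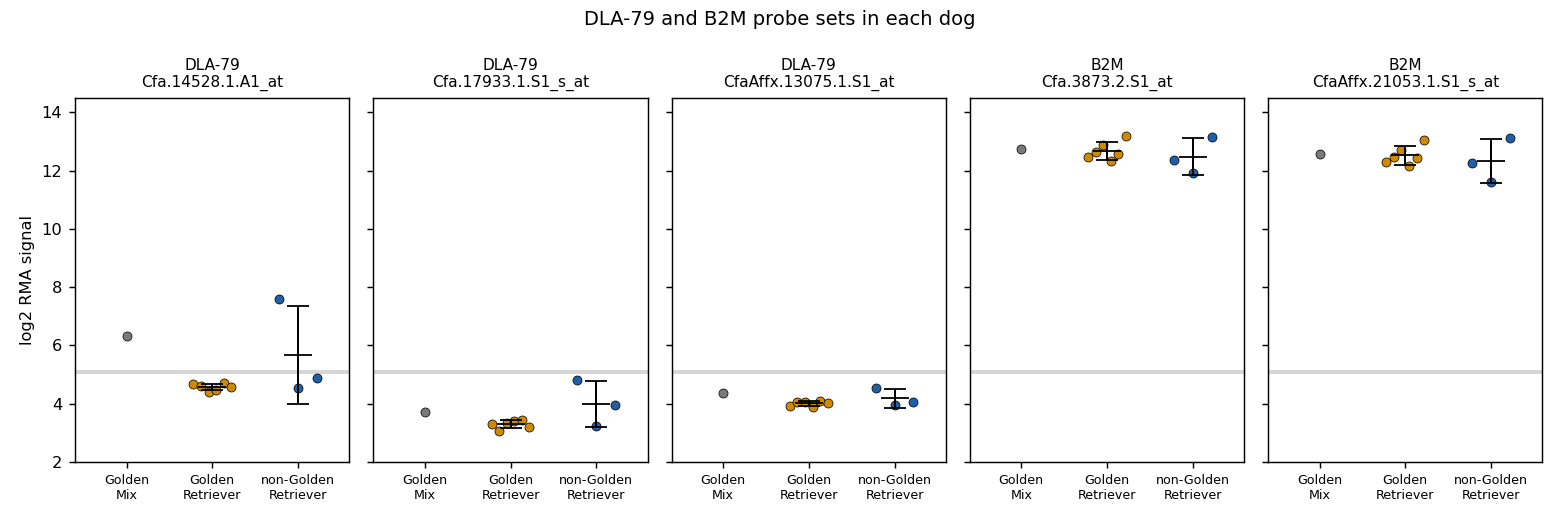
Log2 RMA signal of the 3 DLA-79 and 2 B2M probe sets, with 1 point per dog, bar and whiskers for mean and SD, and the grey band for the range of the 40th percentile over arrays. For DLA-79 only the first probe set leaves the low range, in DD1 (6.31) and in ChadP9 (7.60), and both B2M probe sets are at 11.62 or above in every dog.

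B2M, the light chain of all class I molecules, was high in every dog and had close to the median spread. At its first probe set, DD1 had 12.75, Golden Retrievers had 12.32 at the lowest (Frog), 12.61 at the median and 13.18 at the highest (Tucker), and ChadP9, Dal4 and Joey had 12.37, 11.91 and 13.17. The groups overlapped, with a log2 difference of 0.20 (SE 0.281) that was -0.09 without Dal4 and 0.54 without Joey. At the second probe set, DD1 had 12.58, Golden Retrievers had 12.18 at the lowest (Frog), 12.45 at the median and 13.05 at the highest (Tucker), and ChadP9, Dal4 and Joey had 12.27, 11.62 and 13.13. There the difference was 0.19 (SE 0.312), at -0.17 without Dal4. The SD among Golden Retrievers was 0.309 at the first of these probe sets, at the 51.3rd percentile of tested probe sets.

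DD1, the Golden Mix dog, was set against both groups in a limma fit of 3 groups on all 10 arrays, in which this dog, having no spread of its own, was assumed to vary like the others. For 5 of the 7 tested members, the signal of DD1 had no part in how the genes were chosen, although the groups it is set against did. Minus the Golden Retriever mean, DD1 differed by 0.60 (SE 0.827) at the second DLA88 probe set, 0.60 (SE 0.775) at the first and -1.51 (SE 1.27) at the second shared probe set, and 0.07 (SE 0.430) and 0.05 (SE 0.477) at the B2M probe sets. None of these passed (limma, adjusted p = 1.00 for each). Minus the non-Golden Retriever mean the values ran from -1.66 at the second shared probe set to 0.30 at the second DLA88 probe set, and again none passed (limma, adjusted p = 1.00 for each).

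At the first DLA88 probe set and at DLA-64, DD1 is described without a test. Nothing is read from a call of the first DLA88 probe set in this fit. That probe set was chosen for its breed values and entered the fit only through the 3 non-Golden Retriever arrays. The first DLA88 signal of DD1 lay within the range of the Golden Retrievers, all of them low. Its DLA-64 signal was 0.61 log2 units above the highest Golden Retriever and just below Dal4, the lowest non-Golden Retriever. DD1 lay above every Golden Retriever at 8.22% of 26891 tested probe sets and below every one at 6.21%, and among the 7 tested members it did so at DLA-64 only. Over all tested probe sets, limma called 0 between DD1 and Golden Retrievers at an adjusted p under 0.05 (171 at an unadjusted p under 0.05, or 0.636%), and 1 between DD1 and non-Golden Retrievers (0.00372%, with 632 or 2.35% at an unadjusted p under 0.05), which was the first DLA88 probe set.

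**Figure D3:**
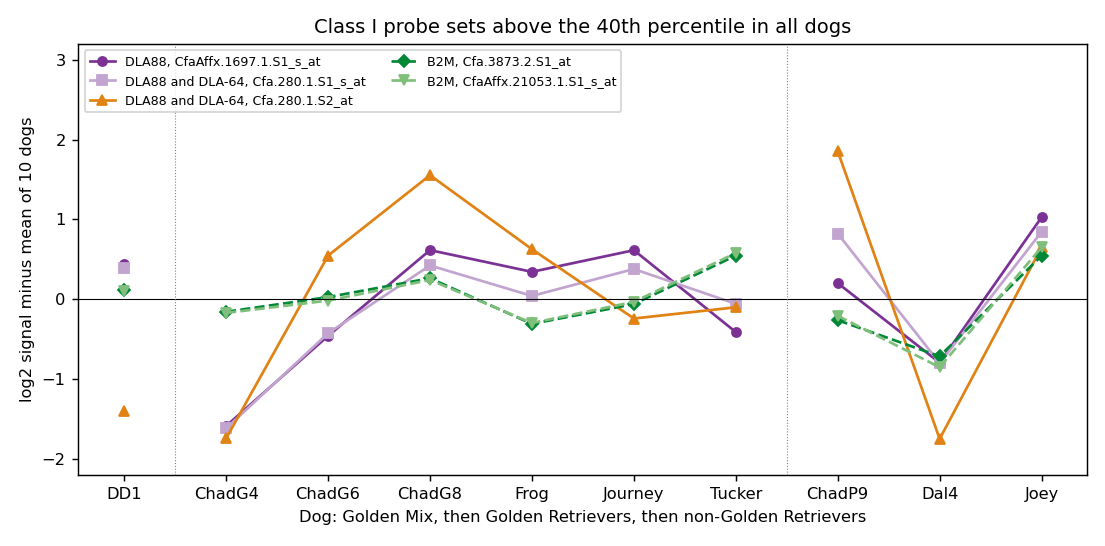
Log2 signal of 5 class I probe sets in each dog, minus the mean of the 10 dogs, for the probe sets that were above the 40th percentile on every array, with dogs of a group joined by lines. ChadG4 and Dal4 lie lowest for the DLA88 and shared probe sets, and the 2 B2M lines nearly coincide.

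Across the 10 dogs, the second DLA88 probe set and the first shared probe set moved together, with Pearson r = 0.934 and Spearman rho = 0.867 (permutation tests, adjusted p = 0.00196 and 0.0263). Without ChadG4 and Dal4, the 2 dogs farthest from the median, r was 0.779, and within the 6 Golden Retrievers it was 0.963. The 2 B2M probe sets had r = 0.994 and rho = 0.988 (permutation tests, adjusted p = 0.00028 and 0.00056), with r = 0.988 without Dal4 and Tucker. Probe sets of related sequence can share probes, so these pairs need not be independent measurements.

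Between heavy and light chains no relation passed. The second DLA88 probe set and B2M had r = 0.413 and rho = 0.479 across the dogs (permutation tests, adjusted p = 0.368 and 0.335), and r = 0.070 without ChadG4 and Dal4. The second shared and the second DLA88 probe set had r = 0.580 and rho = 0.552 (permutation tests, adjusted p = 0.181 and 0.249), and r = 0.051 without the same dogs. In all, 28 relations were tested, 10 between members and 18 between a member and a gene of peptide loading, each with 100000 permutations, and p was adjusted over the 28. No correlation is given for the first DLA88 probe set as a test, since its dogs fell into separate clusters of 7 and 3.

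The signal of B2M was taken at its first probe set. Its Pearson r had an adjusted p under 0.05 (permutation tests) with 5 of the 9 tested genes of peptide transport and loading. The 28 relations of the adjustment include the B2M pair and the pair of second DLA88 and first shared probe sets. The small p of those pairs lowers the adjusted p of the loading genes. For TAP1, TAP2 and TAPBPL the adjusted p was 0.0487 (permutation tests), near the threshold, and is not read as a pass. CANX encodes calnexin, the chaperone that holds new heavy chains, and had r = 0.920 and rho = 0.855 with B2M (permutation tests, adjusted p = 0.00126 and 0.0263). Without Dal4 and Tucker r was 0.884, and within the Golden Retrievers it was 0.914. PDIA3, the disulfide isomerase of the loading complex, had r = 0.824 and rho = 0.794 with B2M (permutation tests, adjusted p = 0.0254 and 0.0622), and r = 0.578 without Dal4 and Tucker.

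TAP1 and TAP2 encode the subunits of the peptide transporter. TAP1 had r = 0.767 and rho = 0.782 with B2M (permutation tests, adjusted p = 0.0487 and 0.0622), and r = 0.871 without Dal4 and Tucker. TAP2 had r = 0.759 and rho = 0.685 (permutation tests, adjusted p = 0.0487 and 0.122), but r was 0.444 without Dal4 and Tucker, so this relation rested in part on those dogs. The relation of TAPBPL, a peptide editor related to tapasin, was similar, with r = 0.754 and rho = 0.636 (permutation tests, adjusted p = 0.0487 and 0.153) and r = 0.585 without the 2 dogs. Of the loading genes, CANX alone had an adjusted p under 0.05 by both coefficients (permutation tests), over these same 28 relations. For rho, that adjusted p also leans on the small p of the 2 member pairs that may share probes. The rho of CANX is therefore not read as a pass. Among 11111 genes, the share with an r to B2M as high was 0.081% for CANX, 0.846% for PDIA3, 1.89% for TAP1, 2.12% for TAP2 and 2.21% for TAPBPL, as a description across genes, which are not independent.

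With the second DLA88 probe set, r was 0.039 for TAP1, 0.076 for TAP2 and 0.292 for CANX, with rho of 0.164, 0.042 and 0.188 (permutation tests, adjusted p for r = 0.919, 0.897 and 0.521). None of the 9 loading genes passed. The highest was TAPBP, which encodes tapasin, the bridge between the heavy chain and the transporter, with r = 0.634 and rho = 0.333 (permutation tests, adjusted p = 0.148 and 0.492), and r = 0.059 without ChadG4 and Dal4. Whether the correlations of B2M and DLA88 with a loading gene differed from each other was not tested. ERAP2, a trimming peptidase, had negative coefficients with both, r = -0.604 and rho = -0.709 with DLA88 (permutation tests, adjusted p = 0.168 and 0.106), and r = -0.599 and rho = -0.661 with B2M (permutation tests, adjusted p = 0.168 and 0.135).

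**Figure D4:**
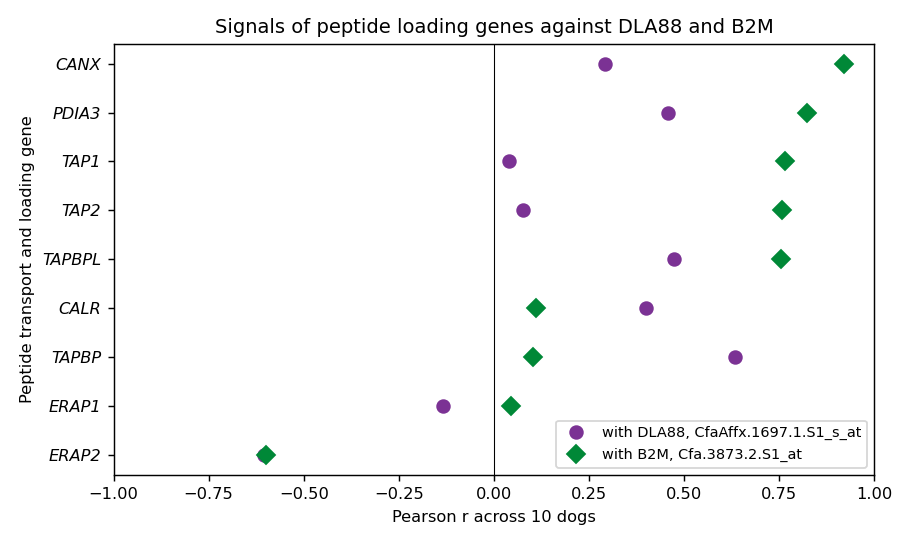
Pearson r across 10 dogs between each of 9 peptide transport and loading genes and the second DLA88 probe set (circles) or B2M (diamonds). CANX, PDIA3, TAP1, TAP2 and TAPBPL lie between 0.754 and 0.920 with B2M, and no gene exceeds 0.634 with DLA88.

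The rest of the pathway showed no breed difference that passed the test. Of 54 genes in 6 lists of antigen presentation and interferon genes, 38 were tested, each by its probe set of highest mean, and 0 were called by limma over all probe sets (smallest adjusted p = 0.772). None had an unadjusted p under 0.05, where 6.15% of 11111 genes did, and none had groups that did not overlap. The mean was lower in Golden Retrievers for 21 of the 38, against 53.4% of all genes, whose median log2 difference was -0.02.

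Of the 9 peptide transport and loading genes, 7 had a higher and 2 a lower mean in Golden Retrievers, with a median log2 difference of 0.08, which was -0.16 without Dal4 and 0.23 without Joey. ERAP1, the aminopeptidase that trims peptides to length, had 7.29 ± 0.362 in Golden Retrievers (SD, n = 6) and 7.82 ± 0.365 in non-Golden Retrievers (SD, n = 3), a difference of -0.53 (SE 0.244, limma adjusted p = 0.772). The differences of CANX and TAP2 were 0.23 (SE 0.210) and 0.15 (SE 0.301). The 5 genes of the immunoproteasome and its activator all had lower means, with a median of -0.14, which was 0.05 without Dal4 and -0.24 without Joey. Among them PSMB8, PSMB9 and PSME1, which encode catalytic subunits and an activator subunit, had -0.14 (SE 0.191), -0.23 (SE 0.397) and -0.16 (SE 0.273).

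Regulators of class I transcription had a median difference of -0.09, with 1 of 9 genes higher and 8 lower in Golden Retrievers, and the median was -0.19 without Dal4 and -0.01 without Joey. NLRC5, the class I transactivator, had 5.37 ± 0.135 in Golden Retrievers (SD, n = 6) and 5.46 ± 0.173 in non-Golden Retrievers (SD, n = 3), a difference of -0.09 (SE 0.136). RELA, a subunit of NF-kappaB, and RFXANK, a subunit of the RFX complex, had -0.19 (SE 0.204) and -0.24 (SE 0.296). All 6 tested interferon-stimulated genes had higher means in Golden Retrievers, with a median of 0.20. That median was 0.10 without ChadG4, 0.11 without Dal4 or without ChadG6, 0.32 without ChadP9, and 0.09 with no filter on low signals. IFI44L, IFI44 and OAS1 had differences of 0.72 (SE 0.485), 0.67 (SE 0.462) and 0.31 (SE 0.285). Both means of IFI44L were low, at 4.82 in Golden Retrievers and 4.10 in non-Golden Retrievers. Every non-Golden Retriever was low there (4.81 at the highest), so IFI44L entered the test only through Golden Retriever arrays. No order is read from its difference.

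Of 8 interferon receptor and signaling genes, 3 had higher and 5 lower means in Golden Retrievers, with a median of -0.08, which was -0.003 without Dal4 and -0.16 without ChadP9. JAK1, a kinase of both interferon pathways, had -0.21 (SE 0.116), STAT2 had 0.16 (SE 0.134) and IFNGR2, a chain of the interferon gamma receptor, had 0.27 (SE 0.234). Of 7 other heavy chains that pair with B2M, only 3 had a probe set of their own on the array, and 1 passed the filter and was tested. That gene, FCGRT, encodes the heavy chain of the neonatal Fc receptor and had -0.27 (SE 0.481).

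None of the neighbours of DLA88 and DLA-64 on chromosome 12 passed the breed test. Of the 10 nearest named genes with a tested probe set, 5 on each side, 7 had higher and 3 lower means in Golden Retrievers, with a median difference of 0.11 and 0 called. DDR1, a collagen receptor kinase, had 5.96 ± 0.880 in Golden Retrievers (SD, n = 6) and 7.83 ± 0.750 in non-Golden Retrievers (SD, n = 3), a difference of -1.86 (SE 0.525, limma adjusted p = 0.772). Its groups did not overlap, and DD1 had 4.52. ATP6V1G2, a proton pump subunit, was the other gene without overlap, with 0.51 (SE 0.153, limma adjusted p = 0.772). Over all tested probe sets, Golden Retrievers were all below non-Golden Retrievers at 1.66% and all above at 0.795%. DDR1 and ATP6V1G2 also had an unadjusted limma p under 0.05 (0.00580 and 0.00877), as did 6.15% of 11111 genes. Whether these neighbours exceed those shares was not tested. The nearest tested genes on each side, TCF19 and MCCD1, had 0.12 (SE 0.289) and 0.09 (SE 0.155). In the gene table, 2 genes lay between DLA88 and TCF19, 9 between DLA88 and MCCD1, and 14 between DLA88 and DDR1.

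**Figure D5:**
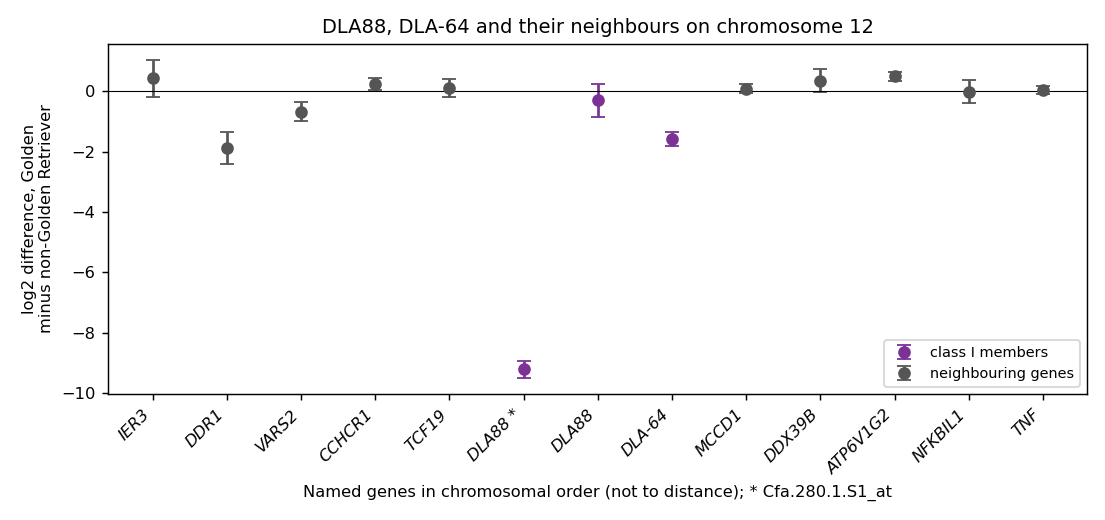
Golden Retriever minus non-Golden Retriever difference in log2 signal, with SE, for 2 DLA88 probe sets (the starred one is the first), DLA-64 and 10 neighbouring genes in chromosomal order. Apart from the starred point at -9.22, values run from -1.86 (DDR1) to 0.51 (ATP6V1G2).

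Around DLA-79, 8 of the 10 nearest tested genes had higher and 2 lower means in Golden Retrievers, and 0 were called. Many genes between were not tested, so these are not close neighbours. In the gene table, 161 genes lay between DLA-79 and APLNR, and 35 between DLA-79 and FNBP4. FNBP4, a formin-binding protein, had -0.70 (SE 0.208, limma adjusted p = 0.772). It alone had an unadjusted limma p under 0.05 (0.00773). APLNR, the apelin receptor, was the 1 gene whose groups did not overlap, at 0.23 (SE 0.116, limma adjusted p = 0.776). The shares over all tested probe sets and genes are those given above for the neighbours of DLA88.

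The genes most like each member over the 10 arrays were named by Pearson r as a description, with no test, among 1-gene probe sets. For the first DLA88 probe set they were ZNF169 (r = 0.975), BBS4, BTBD7, FXR2 and ZNF322 (r = 0.928). These values rest on the split of 7 against 3 dogs, and within Golden Retrievers r ran from -0.007 for BBS4 to 0.794 for BTBD7. For DLA-64 the closest was CDR2L (r = 0.907), followed by ALKBH1, PKN2, TNPO3 and AKR7A2.

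For the second DLA88 probe set the closest gene was CYP27A1, a sterol hydroxylase (r = 0.967, and 0.949 within Golden Retrievers), followed by BRD9, RFTN1, P4HB and SEC63. For the first shared probe set it was TOMM6, a subunit of the mitochondrial import pore (r = 0.964), followed by RASL11A, KDM5B, TMEM64 and C5H16orf95. For the second it was USP22 (r = 0.933), followed by MBNL3, CIITA, BBX and CPO. Both B2M probe sets had TBC1D22A as the closest (r = 0.976 and 0.989), with CHMP5, SETD6 and TJP1 also named for each.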

How the data were processed

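The authors summarised Affymetrix Canine_2 arrays of total RNA by RMA (affy) and deposited 1 log2 value per probe set and dog. RMA pools the probes of a set and sets all arrays to 1 distribution, so a shift common to most transcripts is removed. Control probe sets (111) were left out. Annotation gave 1 gene to 29254 probe sets, several to 439 and none to 13231. Probe sets whose signal exceeded the 40th percentile on 3 or more arrays entered limma 3.58.1 in R 4.3.3 (two-sided, Benjamini-Hochberg), on 9 purebred arrays for breed (26787) and on 10 arrays for the Golden Mix dog (26891). The code was tested on simulated data. The members and lists were chosen with earlier results of these data known. Named genes were all members, the 3 of smallest p in each list, genes without overlap, the 5 most alike and the 5 nearest on each side. Correlations across dogs used permutation tests. Dogs are the replicates, no culture was arrayed again, and their number limits the precision. Alternatives covered the filter, scaling, the methods' t-test, placement of the Golden Mix dog and leaving out each dog. No sequences are shown, and 0 columns were unmapped.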

Additional observations from a re-analysis of the deposited data

How the results depend on the processing

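The count of 1 probe set called between breeds was 0 with the Golden Mix dog counted as a non-Golden Retriever, where the first DLA88 probe set had a log2 difference of -6.81, and 2 by the methods' t-test, which added ZNF169. Leaving out 1 dog gave 0 to 1 calls, with 0 without ChadP9 or Dal4 and 1 (EPB41L3) without Joey, because with 2 non-Golden Retrievers left the DLA88 probe set cannot reach 3 arrays and was not tested. With the filter of all 9 arrays kept, an alternative chosen after seeing the data, the count was 1 to 2 and included DLA88 each time, with 2 without Joey. Between the Golden Mix dog and non-Golden Retrievers, the count of 1 was 0 without each non-Golden Retriever, again because the DLA88 probe set was not tested. It was 1 with the filter of all 10 arrays kept (also chosen after seeing the data), and 0 with only these groups in the fit. Either kept filter holds the DLA88 probe set in the test through the arrays of all 3 non-Golden Retrievers. Nothing is therefore read for DLA88 from these counts. Against Golden Retrievers the count for the Golden Mix dog was 0 in every alternative run, and the lists had 0 calls in every alternative run. The 5 genes most alike shared 0 to 3 with those by Spearman correlation and 0 to 1 with those within Golden Retrievers. No paired analysis was possible because the groups share no replicate numbers that pair dogs. A difference that did not pass is not shown to be absent, and no order is read from low signals.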

Other observations

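DLA-DRA and CD74, which serve the class II arm of antigen presentation, were low in all dogs but Joey. At 1 probe set, DLA-DRA, a class II chain, had 7.72 in Joey and 3.46 to 4.55 in the other dogs, and a second probe set had 7.66 in Joey and 3.72 to 4.30 in the others. CD74, the invariant chain of class II, had 7.21 in Joey and 4.08 to 4.62 in the others at 1 probe set. At another, CD74 had 6.55 in Joey and 4.17 to 4.57 in the others. The remaining CD74 probe set was low in all dogs, at 3.30 to 3.73. CD3D, a T cell receptor subunit, had 7.45 in DD1, 3.41 to 6.34 in Golden Retrievers and 3.49 to 3.75 in non-Golden Retrievers. Of the other T and NK cell markers, CD3E, CD2 and CD4 were above the 40th percentile on all 10 arrays, and CD8A, KLRD1 and GZMB were low on all 10. These genes were picked after their values were seen.

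CIITA, the transactivator of class II genes, had 2 probe sets that disagreed in their likeness to the second probe set shared by DLA88 and DLA-64. One was among the 5 most alike (r = 0.897), and the other had r = 0.001. Both r are given as values over 10 dogs, with no test. Unlike DLA-DRA and CD74, CIITA did not set Joey apart. At the former probe set Joey had 5.73, against 5.26 to 5.74 in the other dogs. At the latter Joey was lowest, with 7.67 against 7.71 to 8.15.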
